A study of Homo sapiens with 2 samples.

Results

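The loci of 5 genes of the canonical Wnt pathway, CTNNB1, TCF7L2, LEF1, TCF7 and APC, were examined for binding of the homeobox factors Cdx1 and Cdx2 in human colon cancer cells. The members were all ChIP-seq peaks whose summit lay in a fixed GRCh37 window holding each gene and about 10 kb on each side. The windows were 41230000 to 41292000 of chromosome 3 for CTNNB1, 114700000 to 114938000 of chromosome 10 for TCF7L2, 108958000 to 109101000 of chromosome 4 for LEF1, and on chromosome 5 133440000 to 133494000 for TCF7 and 112033000 to 112192000 for APC. In 656 kb in all, they held 53 of the 196910 peaks called for FLAG-wt-Cdx1 and 78 of the 218718 called for FLAG-wt-Cdx2.

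DLD1-TetOff cells derive from the colon cancer line DLD1 and carry a doxycycline (DOX)-repressed transactivator. The 2 libraries came from cells carrying a mouse Cdx1 or a mouse Cdx2 transgene, FLAG-tagged and wild type, and both groups were induced by taking away DOX (0.5 µg/mL) for 20 h. Each library was prepared from 10 dishes combined, chromatin was fixed with 1% formaldehyde and cut with MNase, and the methods describe the TetOff lines as expanded single-cell clones. The sample descriptions also speak of cells kept in DOX without the tagged protein, but the growth and treatment protocols state that DOX was removed, and the libraries were taken as induced. No library from uninduced cells, no input and no replicate was analyzed here, so the factors were not compared by a test and the intervals given here cover counting error only. The libraries are named Cdx1 and Cdx2 from here on.

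β-Catenin, the product of CTNNB1, is the coactivator at the end of the canonical Wnt pathway. APC is the scaffold of the destruction complex that marks β-catenin for degradation, and it is lost or truncated in most colorectal cancers. When β-catenin accumulates, it enters the nucleus and binds the HMG-box proteins of the TCF/LEF family, which hold the target genes and recruit corepressors in its absence. TCF7L2, also named TCF4, is the main family member of the intestinal epithelium, whereas LEF1 and TCF7 are best known from lymphocytes and can themselves be Wnt target genes. The study asks how CDX1/2 oppose β-catenin, and the peaks at these loci show where the tagged factors were found at the genes of the β-catenin machinery itself.

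The letters of the peaks themselves are not shown, since no GRCh37 sequence was used here. To show the kind of sequence that starts these genes, RefSeq promoters of build GRCh38.p14 were searched instead, over the 250 bases before each annotated start. All 5 genes were matched, with 9 starts in all. The CDX core TTTAT, written as ATAAA when it lies on the other strand, was present in 3 of them, and in 32.7% of the 35116 promoters of the table. The TCF/LEF core CTTTG, or CAAAG in the reverse direction, was present in 4, and in 42.1% of all promoters. The 4 promoters below are those that hold a CDX core, plus that of LEF1, whose window carried the Cdx2 peak of highest fold enrichment. Capitals mark both cores, and each sequence is written 5′ to 3′ on the strand of the gene. These positions belong to another build than the peaks and were not placed on them, so that whether a peak lies on a promoter was not determined.
TCF7L2, upstream start, chr10:112949997-112950246, plus strand: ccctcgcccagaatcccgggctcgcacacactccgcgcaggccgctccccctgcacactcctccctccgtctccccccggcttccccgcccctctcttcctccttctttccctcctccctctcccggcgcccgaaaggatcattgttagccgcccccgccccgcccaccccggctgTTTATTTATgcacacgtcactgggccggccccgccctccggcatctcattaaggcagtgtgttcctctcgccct
TCF7L2, internal start, chr10:113126383-113126632, plus strand: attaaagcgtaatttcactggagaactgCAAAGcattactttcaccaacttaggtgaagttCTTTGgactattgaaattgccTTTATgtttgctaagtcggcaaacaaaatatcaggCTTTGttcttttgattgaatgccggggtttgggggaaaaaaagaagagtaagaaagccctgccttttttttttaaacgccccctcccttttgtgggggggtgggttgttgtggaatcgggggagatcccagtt
TCF7, upstream start, chr5:134115363-134115612, plus strand: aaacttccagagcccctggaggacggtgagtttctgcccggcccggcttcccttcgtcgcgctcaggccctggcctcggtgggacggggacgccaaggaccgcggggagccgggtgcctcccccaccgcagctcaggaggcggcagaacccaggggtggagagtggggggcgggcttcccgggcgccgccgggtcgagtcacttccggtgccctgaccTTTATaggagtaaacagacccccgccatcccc
LEF1, chr4:108166302-108166551, minus strand: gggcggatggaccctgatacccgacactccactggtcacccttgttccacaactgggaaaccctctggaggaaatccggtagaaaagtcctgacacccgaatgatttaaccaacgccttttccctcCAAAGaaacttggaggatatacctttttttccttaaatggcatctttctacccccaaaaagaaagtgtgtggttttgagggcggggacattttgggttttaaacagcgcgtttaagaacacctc
The upstream TCF7L2 promoter had 2 CDX cores that overlap by 1 base, beginning 74 and 70 bases before the start, in a sequence of 68.0% G and C. The internal TCF7L2 promoter was richer in A and T (42.4% G and C) and held 1 CDX core and 3 TCF/LEF cores. The upstream TCF7 promoter held 1 CDX core, beginning 32 bases before the start. The LEF1 promoter held no CDX core and 1 TCF/LEF core. The CTNNB1 promoter and both APC promoters held neither core in these 250 bases.

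The libraries had 16452141 kept tags for Cdx1 and 13781541 for Cdx2. Pileup, the count of fragments covering a summit, was not scaled to depth, so each peak was ranked by its percentile, the share of peaks in its own list with a lower pileup. Fold enrichment divides pileup by local background after adding 1 to both. That background was taken by the authors from the library itself over 10 kb or, where higher, from the genome-wide mean, and it therefore includes tags of neighboring peaks.

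TCF7L2 carried the most peaks of the 5 loci with Cdx1 (21) and, together with APC, the most with Cdx2 (26 at each). APC had 15 Cdx1 peaks. LEF1 had 11 and 17 peaks with Cdx1 and Cdx2, CTNNB1 had 4 and 5, and TCF7 had 2 and 4. Per 100 kb, the Cdx1 density was highest at APC with 9.43 peaks (95% exact Poisson interval, 5.28 to 15.6), followed by TCF7L2 with 8.82 (5.46 to 13.5), LEF1 with 7.69 (3.84 to 13.8), CTNNB1 with 6.45 (1.76 to 16.5) and TCF7 with 3.70 (0.449 to 13.4). The intervals of all 5 loci overlapped, and the differences between loci were not tested. The Cdx2 density was 16.4 at APC (10.7 to 24.0), 11.9 at LEF1 (6.93 to 19.0), 10.9 at TCF7L2 (7.14 to 16.0), 8.06 at CTNNB1 (2.62 to 18.8) and 7.41 at TCF7 (2.02 to 19.0). These intervals also overlapped. The order of the Cdx1 densities rested on the edges of the windows: without the outer 10 kb on each side, an alternative chosen after the data were seen, APC fell from 15 to 9 Cdx1 peaks and to 6.47 per 100 kb (2.96 to 12.3), against 9.63 at TCF7L2, 9.52 at CTNNB1, 8.94 at LEF1 and 5.88 at TCF7. The Cdx2 density without the edges remained highest at APC, with 15.8 (9.92 to 24.0), followed by 13.0 at LEF1, 11.9 at TCF7L2, 9.52 at CTNNB1 and 5.88 at TCF7.

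On chromosome 5 as a whole there were 7.0 Cdx1 and 7.84 Cdx2 peaks per 100 kb, so that the Cdx2 interval at APC lay above the value of its chromosome. At the other loci and for Cdx1 at APC, the interval held the value of the chromosome, which was 6.51 to 7.16 for Cdx1 and 7.60 to 8.09 for Cdx2 over chromosomes 10, 3 and 4. When the autosomes were cut into consecutive windows as long as the APC window, 99.5% of 16855 windows had fewer Cdx2 peaks and 76.7% had fewer Cdx1 peaks. For windows as long as that of LEF1, 87.6% had fewer Cdx2 peaks and 54.3% had fewer Cdx1 peaks. For TCF7L2 the shares were 84.3% and 73.0%, for CTNNB1 43.9% and 36.7%, and for TCF7 36.8% and 12.8%, again for Cdx2 and Cdx1. Windows with the same number as the locus did not count as fewer. In the same order, they made up 15.6% and 16.8% for CTNNB1 and 17.7% and 14.7% for TCF7, and at most 9.2% for the other loci. Without the outer 10 kb, the lower bound of the Cdx2 density also passed the chromosome value at TCF7L2 (7.79 against 7.60). This margin is small, and the chromosome values include stretches without any peak, which lower them. The window shares are a ranking of the loci among stretches of the genome, and were not tested.

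The Cdx2 list was 1.11 times as long as the Cdx1 list, and over the 5 loci it held 1.47 times the peaks. The ratio was 1.73 at APC, 1.55 at LEF1, 1.25 at CTNNB1, 1.24 at TCF7L2 and 2.00 at TCF7, the last from 2 and 4 peaks. No interval was computed for these ratios. Over the 5 loci, the exact intervals of the peaks per 100 kb overlapped, at 6.05 to 10.6 for Cdx1 and 9.40 to 14.8 for Cdx2. They also overlapped at each locus. Overlap of such intervals does not decide whether 2 counts differ. Whether the excess of Cdx2 peaks goes beyond counting error and the longer list was therefore not tested. Of the Cdx1 peaks of the 5 loci, 29 of 53 (54.7%) reached a −log10 q of at least 5, against 52.2% of all Cdx1 peaks. Of the Cdx2 peaks, 33 of 78 (42.3%) reached it, against 29.0% of the whole list. At LEF1, 11 of 17 Cdx2 peaks passed this threshold, at APC 11 of 26, at TCF7L2 10 of 26, at TCF7 1 of 4 and at CTNNB1 0 of 5. With Cdx1 the counts were 6 of 11, 9 of 15, 11 of 21, 1 of 2 and 2 of 4, in the same order. The ratio of the counts of Cdx2 to Cdx1 past the threshold was thus 1.14 over the 5 loci and 0.617 over the whole lists, and it was 1.83 at LEF1, 1.22 at APC and 1.0 at TCF7 (1 peak each). It was 0.909 at TCF7L2, from 10 Cdx2 and 11 Cdx1 peaks, and so still above the 0.617 of the whole lists. At CTNNB1, 0 Cdx2 and 2 Cdx1 peaks were left. The ratios past the threshold also have no interval, so whether they differ from 0.617 by more than counting error was not tested. Counting only peaks past this threshold, a ranking chosen after the data were seen, the share of equally long windows with fewer Cdx2 peaks was 99.4% for LEF1, 99.0% for APC, 89.2% for TCF7L2, 30.8% for TCF7 and 0% for CTNNB1. The 0% at CTNNB1 was fixed by its count of 0, since no window can hold fewer, and does not set it below windows that also held 0. For Cdx1 the share of windows was 56.0% for LEF1, 82.7% for APC, 70.0% for TCF7L2, 14.2% for TCF7 and 33.7% for CTNNB1.

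The local background around these peaks was also higher with Cdx2. Its median over the peaks of the 5 loci was 1.45 times the genome-wide value of the library, against 1.08 over all Cdx2 peaks. With Cdx1 it was 1.20 times, against 1.17. It was highest at TCF7L2, with medians of 1.35 for Cdx1 and 1.62 for Cdx2. At APC the medians were 1.26 and 1.37, at LEF1 1.05 and 1.41, at CTNNB1 1.17 and 1.45, and at TCF7 1.0 and 1.19. The part of this background in the peak counts was not tested, and the number of copies of these loci in the clones was not measured here.

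**Figure D1:**
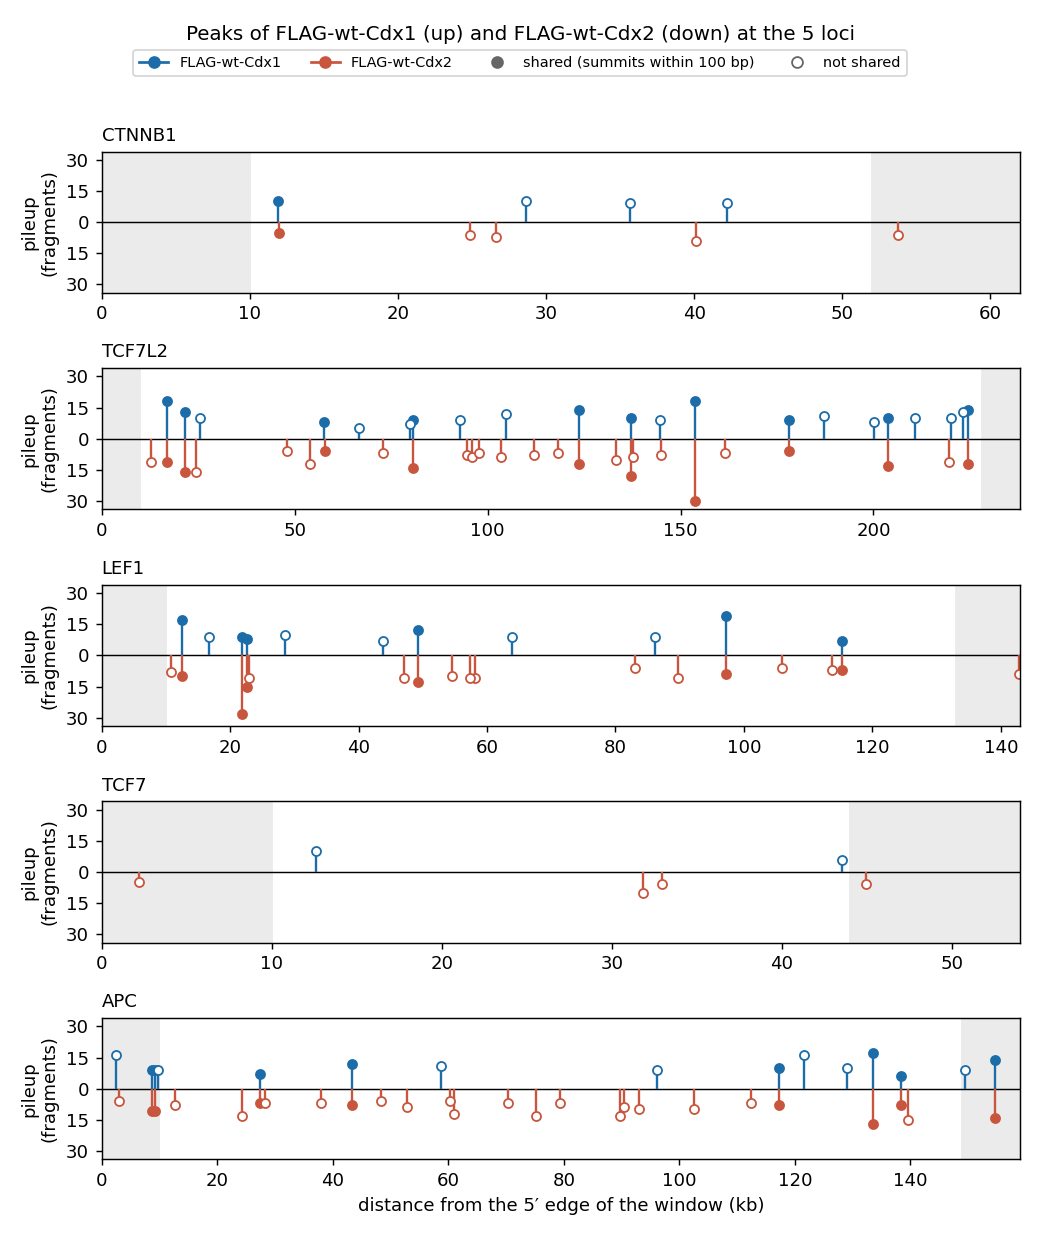
Each line is a peak, placed by the distance of its summit from the 5′ edge of the window (kb, horizontal axis) with its pileup in fragments as height, upward for Cdx1 and downward for Cdx2. Filled circles are shared peaks and open circles are not shared, and grey marks 10 kb at each edge; TCF7 has no filled circle, and the tallest lines are the Cdx2 peaks of 30 fragments at TCF7L2 and 28 at LEF1.

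By pileup percentile, the peaks of the 5 loci spread over almost the whole range of each list. With Cdx1, pileups ran from 5 to 19 fragments around a median of 10, and the percentiles from 0 to 95.7 with a median of 50.1. With Cdx2, they ran from 5 to 30 fragments around a median of 9, with percentiles from 1.51 to 99.4 and a median of 60.2. Pileups are whole counts with many ties, so the median pileup of a list did not fall at its middle percentile. A pileup at the list median had the percentile 31.9 with Cdx1 (9 fragments) and 44.8 with Cdx2 (8 fragments). At LEF1 the median Cdx1 pileup was likewise 9, against 10 at TCF7L2 and APC. The median percentile of Cdx1 was 50.1 at TCF7L2, 50.1 at APC, 41.0 at CTNNB1, 31.9 at LEF1 and 25.5 at TCF7. That of Cdx2 was 72.4 at LEF1, 66.3 at TCF7L2, 52.5 at APC and 9.32 at both CTNNB1 and TCF7. The order depended on the measure ranked. By fold enrichment, the Cdx1 median at LEF1 rose to 55.4, between 55.7 at APC and 55.2 at CTNNB1, with 45.6 at TCF7L2 and 39.1 at TCF7. The Cdx2 median at TCF7L2 fell to 36.6 by fold enrichment and to 44.6 by −log10 q, below the 58.6 and 57.9 of APC. LEF1 stayed highest with Cdx2, at 70.4 and 72.5, and CTNNB1 and TCF7 lowest, at 12.4 to 16.5. Percentiles of at least 90 were reached by 7 Cdx1 and 10 Cdx2 peaks, all of them at TCF7L2, LEF1 and APC. Such percentiles were held by 8.67% and 7.62% of the peaks of the lists.

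**Figure D2:**
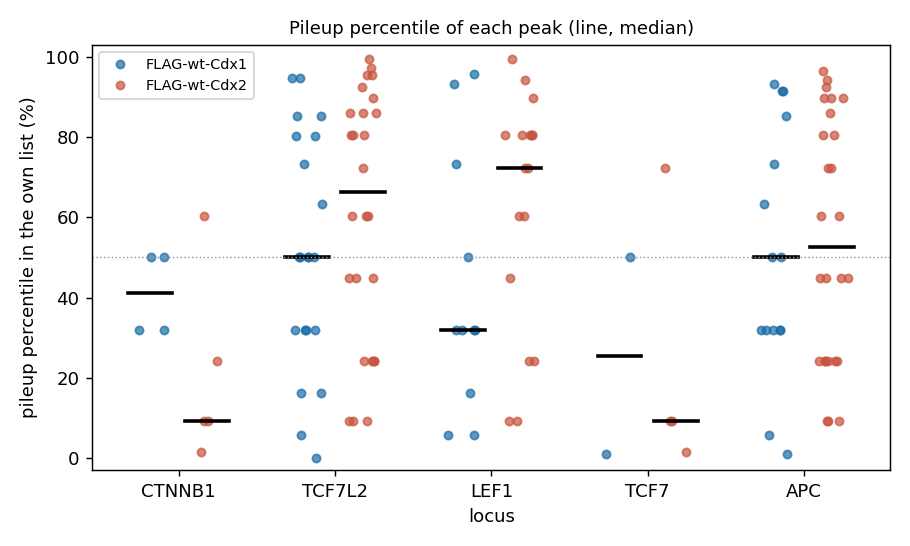
Pileup percentile of each peak within its own list (vertical axis, %) at the 5 loci, with Cdx1 in blue, Cdx2 in red and black lines for the medians. The points are spread widely at TCF7L2, LEF1 and APC, while at CTNNB1 and TCF7 no point exceeds 72.4.

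Peaks were called shared when the summits of the libraries lay within 100 bp of each other. Over the 5 loci there were 25 shared pairs, with summits at most 83 bp and in the median 20 bp apart. This was 47.2% of 53 peaks for Cdx1 (95% Clopper-Pearson interval, 33.3 to 61.4) and 32.1% of 78 peaks for Cdx2 (21.9 to 43.6). The whole lists shared 29.2% (Cdx1) and 26.3% (Cdx2). The interval of the Cdx1 share at these loci thus lay above the share of its list, whereas the Cdx2 interval held the share of its list. By locus, 10 pairs lay at TCF7L2 (47.6% of its Cdx1 and 38.5% of its Cdx2 peaks), 8 at APC (53.3% and 30.8%), 6 at LEF1 (54.5% and 35.3%) and 1 at CTNNB1 (25.0% and 20.0%). None of the 6 peaks at TCF7 was shared. There, the exact upper limits of the share were 84.2% for 0 of 2 and 60.2% for 0 of 4 peaks.

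At the 25 pairs, the Cdx2 pileup was multiplied by 1.19 to bring it to the tags of Cdx1. The scaled ratio of Cdx2 to Cdx1 then had a median of 1.19, with a range of 0.565 to 3.71, and exceeded 1 at 17 pairs. Over all 57545 shared pairs of the lists, the median was 1.05 and 54.9% exceeded 1. By fold enrichment, Cdx2 was higher at 10 of the 25 pairs, against 41.9% of all pairs. With 1 added to pileup and background, this measure removes the local background only in part. It was also not scaled to depth, and its median was 5.33 over all Cdx1 peaks and 4.72 over all Cdx2 peaks. Only 2 pairs, at LEF1 and at TCF7L2, had an exact interval of the scaled ratio that did not hold 1, and these intervals were not adjusted for the 25 pairs.

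CTNNB1 encodes β-catenin. Its only shared pair lay 11.9 kb into the window, with summits at positions 41241926 (Cdx1) and 41241983 (Cdx2) of chromosome 3. The pileups were 10 and 5 fragments, with fold enrichments of 6.12 and 3.54. This was the Cdx1 peak of highest fold enrichment at the locus and the Cdx2 peak of lowest pileup. The scaled ratio was 0.597 (95% exact interval, 0.160 to 1.92), so the difference was within counting error. The summits no longer made a pair when they had to lie within 50 bp, or when each peak had to overlap 50% of the other. The other 3 Cdx1 peaks had 9 or 10 fragments, and their nearest Cdx2 summits were 2013 to 4472 bp away. The Cdx2 peak of highest pileup, at position 41270118, had 9 fragments and a fold enrichment of 4.88. No peak of either library at this locus reached a percentile of 90.

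TCF7L2 encodes the TCF/LEF partner of β-catenin that dominates in colon. The window held the peak of highest pileup of all 5 loci. At position 114853811 of chromosome 10, 153.8 kb from the 5′ edge of the window, Cdx2 reached 30 fragments (95% exact Poisson interval, 20.2 to 42.8), a fold enrichment of 12.0 and the percentile 99.4. The Cdx1 summit lay 15 bp away at 114853796, with 18 fragments (10.7 to 28.4), a fold enrichment of 9.71 and the percentile 94.6. The scaled ratio was 1.99 (1.07 to 3.79), higher than at 94.8% of all shared pairs. The ratio of the fold enrichments was 1.23. The local background was 2.29 times the genome-wide value for Cdx2 and 1.20 times for Cdx1.

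The next pairs at TCF7L2 by summed pileup had summits at 114721596 (Cdx1) and 114721601 (Cdx2), with 13 and 16 fragments, and at 114837223 and 114837256, with 10 and 18 fragments. Their scaled ratios were 1.47 (0.663 to 3.32) and 2.15 (0.940 to 5.21), both within counting error. At the pair near the 5′ edge, 16.9 kb into the window, Cdx1 was the higher, with 18 fragments at 114716917 and 11 Cdx2 fragments at 114716947. Its scaled ratio was 0.730 (0.311 to 1.63). The remaining 6 pairs had ratios between 0.796 and 1.86. The pairs were spread over the window, with 3, 4 and 3 in its 3 equal stretches from the 5′ to the 3′ side. The Cdx2 peak of highest pileup without a Cdx1 summit within 500 bp at any of the 5 loci was also at TCF7L2, at 114724543, where 16 fragments gave a fold enrichment of 6.81. There, the nearest Cdx1 summit was 826 bp away and had 10 fragments.

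LEF1 encodes a TCF/LEF factor that is scarce in normal intestinal epithelium and can be switched on in colorectal cancer. The gene lies on the minus strand, and the 5′ side of its window, the stretch of 47.7 kb at high coordinates, held 6 peaks of each library and 3 of the 6 shared pairs. A cluster lay 21 to 23 kb from the 5′ edge. Cdx2 reached 28 fragments (18.6 to 40.5) at position 109079142 of chromosome 4, with a fold enrichment of 12.8, the highest of all peaks at the 5 loci. The Cdx1 summit 52 bp away, at 109079194, had 9 fragments (4.12 to 17.1) and a fold enrichment of 5.33. The scaled ratio of 3.71 (1.70 to 8.95) was the highest of the 25 pairs and exceeded that of 99.9% of all shared pairs. The ratio of the fold enrichments was 2.40, with local backgrounds of 1.82 times the genome-wide value for Cdx2 and 1.1 times for Cdx1.

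A second pair of the cluster had 8 Cdx1 fragments at 109078348 and 15 Cdx2 fragments at 109078370. Its scaled ratio of 2.24 (0.891 to 6.10) was within counting error. A further Cdx2 summit, at 109078022 with 11 fragments, had its nearest Cdx1 summit 326 bp away. At 2 other LEF1 pairs the order was the opposite. Cdx1 had its highest pileup of all 5 loci at 109003775, with 19 fragments (11.4 to 29.7), a fold enrichment of 10.9 and the percentile 95.7. Cdx2 had 9 fragments 35 bp away at 109003740, and the scaled ratio was 0.565 (0.225 to 1.31). At 12.5 kb from the 5′ edge, Cdx1 had 17 fragments at 109088522 and Cdx2 had 10 at 109088467, with a scaled ratio of 0.702 (0.287 to 1.62). Both of these differences were within counting error. At position 109051756 the summits coincided, with 12 and 13 fragments. LEF1 therefore held both the highest and the lowest scaled ratio of the 25 pairs, within a single window of 143 kb.

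TCF7 encodes TCF1, the TCF/LEF factor best known from T cells. It had the fewest peaks, and its Cdx1 peaks had 10 fragments at position 133452602 of chromosome 5 and 6 fragments at 133483501. The 4 Cdx2 peaks had 5, 10, 6 and 6 fragments at 133442170, 133471817, 133472940 and 133484938. The highest of these had a fold enrichment of 5.88, close to the 6.12 of the highest Cdx1 peak. The closest summits of the libraries were 1437 bp apart, and the highest peak of each library was 10432 bp (Cdx1) and 11684 bp (Cdx2) from any summit of the other.

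APC encodes the tumor suppressor that holds β-catenin in check. Its strongest pair had 17 fragments in each library, with summits at positions 112166511 (Cdx1) and 112166453 (Cdx2) of chromosome 5. The fold enrichments were 8.73 and 8.40, the percentiles 93.2 and 96.5, and the scaled ratio 1.19 (0.573 to 2.49). These were the highest pileups of both libraries at the locus. At 112187618 the summits coincided, with 14 fragments in each library. A pair of neighboring sites lay 8.64 and 9.29 kb from the 5′ edge, in the outer 10 kb of the window. There, Cdx1 had 9 fragments at 112041640 and at 112042291, and Cdx2 had 11 at 112041625 and at 112042295. Over the 8 APC pairs the scaled ratio ran from 0.796 to 1.59, a narrower range than at LEF1, and all 8 intervals held 1.

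The numbers of peaks at APC differed most in the middle of the window. In the middle of 3 equal stretches of 53 kb there were 9 Cdx2 peaks, 2 Cdx1 peaks and no shared pair. The 5′ stretch held 11 and 6 peaks with 4 pairs, and the 3′ stretch 6 and 7 peaks with 4 pairs. The longest distance between neighboring Cdx1 summits was 37.4 kb, and that between Cdx2 summits was 16.1 kb. The Cdx1 peak of highest fold enrichment among those of highest pileup without a Cdx2 summit within 500 bp was found here, at 112154531. It had 16 fragments, a fold enrichment of 9.25 and the percentile 91.3, and the nearest Cdx2 summit was 4215 bp away. A further Cdx1 peak of 16 fragments, at 112035439, had its nearest Cdx2 summit 513 bp away, with 6 fragments.

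Peaks without a partner were about as frequent at these loci as in the whole list for Cdx2. Of its 78 peaks, 51 (65.4%) had no Cdx1 summit within 500 bp, against 66.1% of all Cdx2 peaks, among them 18 of 26 at APC, 15 of 26 at TCF7L2, 10 of 17 at LEF1, 4 of 5 at CTNNB1 and all 4 at TCF7. For Cdx1, 26 of 53 (49.1%) had no Cdx2 summit within 500 bp, against 62.2% of the whole list, among them 6 of 15 at APC, 10 of 21 at TCF7L2, 5 of 11 at LEF1, 3 of 4 at CTNNB1 and both at TCF7. The median distance to the nearest summit of the other library was 473 bp for Cdx1 and 1909.5 bp for Cdx2, against 1641 bp and 2370 bp over the whole lists. The Cdx1 medians were 55 bp at LEF1, 58 bp at APC, 336 bp at TCF7L2, 2048 bp at CTNNB1 and 5934.5 bp at TCF7. The Cdx2 medians at the same loci were 1763, 2630, 675, 2083 and 10496.5 bp. The value at APC was close to the 2370 bp of the whole list, and the far higher one at TCF7 rested on 4 peaks.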

How the data were processed

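Peak lists of DLD1-TetOff cells were used (1 ChIP-seq library for each tagged factor), grouped by their titles. According to the submitters' processing notes, bcl2fastq 1.8.3, cutadapt 1.1 and Trimmomatic 0.32 were applied and the build was GRCh37. Which aligner was used is not clear from the headers, which name bowtie and BWA. Per the file headers, MACS 2.0.10.20131216 was run on each library with a q-value cutoff of 0.05, no control and at most 1 tag per position. The deposited values are the pileup signal in fragments, the fold enrichment as a ratio, and the −log10 p and −log10 q; they were used as given.

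Windows, the summit rule and the distance of 100 bp came with the choice of the loci, and the members and lists were chosen with earlier results of these data known. The local background was recovered from pileup and fold enrichment with a pseudocount of 1. Chromosome densities were taken between the outermost summits, and comparison windows without any peak were left out. Intervals are exact (95%). The peaks named were the highest at each locus, the pairs of highest summed pileup, and the highest peak of each library without a partner within 500 bp; other peaks were named after their values were seen. No test between factors was made with 1 library each, and pathway genes without a given window were not analysed here. Matching of summits was tested on simulated data. Python 3.11.15, numpy 2.4.6, pandas 2.3.3 and scipy 1.17.1 were used.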

Additional observations from a re-analysis of the deposited data

How the results depend on the processing

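Over the 5 loci, the number of peaks fell from 53 to 29 (Cdx1) and from 78 to 33 (Cdx2) with a −log10 q of at least 5, and to 33 and 37 when fold enrichment had to reach 5, as both alternatives keep fewer peaks by construction. Windows without the outer 10 kb or a count by any overlap kept both numbers within 1.5 times. The shared share of Cdx2 rose to 48.5% when its peaks with a −log10 q of at least 5 were set against all Cdx1 peaks, and all other definitions left both shares inside their intervals, at 34.5% to 51.7% for Cdx1 and 25.6% to 32.1% for Cdx2. The shares of the whole lists were not recomputed under these definitions. Whether the Cdx1 share stays above that of its list under each of them was thus not tested. The median percentile of Cdx1 was 51.4 by fold enrichment, 50.2 by −log10 q and 51.9 within the chromosome, each outside the interval of its median by pileup, 50.1. Tied pileups put the upper limit of that interval at the median itself, so any higher value fell outside, however close. The median percentile of Cdx2, 60.2 by pileup, ran from 55.4 to 61.8 under the same alternatives and stayed inside its interval. At single loci, 18 of 40 alternative peak counts, 7 of 58 shares and 4 of 30 median percentiles moved (2 for Cdx1 at CTNNB1 and 2 for Cdx2 at TCF7L2). The median local background over the shared peaks alone did not move in 8 of 8 cases. At CTNNB1 this was fixed in advance, since the interval there spanned all peaks, the 1 shared peak of each library among them. The share of windows with fewer peaks moved in all 10 cases when only peaks with a −log10 q of at least 5 were counted. Here, moved means outside an interval that treats the 11309 to 48902 windows as draws. This interval is narrow, so small changes counted as moved, such as from 54.3% to 56.0% for Cdx1 at LEF1. A larger change was from 87.6% to 99.4% for Cdx2 at LEF1. The densities without the outer 10 kb, chosen after the data were seen, stayed inside the intervals of the whole windows at all 5 loci, although the order of the loci changed for Cdx1.

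No paired analysis was possible because each factor had a single library. No peak was listed below 5 (Cdx1) or 4 fragments (Cdx2). With 2 to 26 peaks per locus and library, the intervals of the densities overlapped between the loci, and differences between loci were not tested.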
